A study of Homo sapiens with 18 samples.

Results

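Depletion of YAP was set directly against depletion of its paralogue TAZ in H1299, an established human non-small cell lung cancer line. The contrast holds the 3 siYAP and the 3 siTAZ libraries of this line, 6 of the 18 RNA-seq libraries in the series, and no control library enters the difference itself, although the 3 H1299 controls help to estimate the spread. All cells had received 30 nM siRNA for 48 h and no serum over the last 18 h. siYAP and siTAZ are SMARTpools, that is, 1 fixed mixture of siRNAs per target (genes YAP1 and WWTR1), so changes owed to losing the target and changes owed to a pool's own sequences cannot be told apart. The 3 siControl libraries of H1299 and the matching A549 libraries, from a second lung cancer line, serve as references. In bulk libraries such as these, fewer cells of a kind and less RNA per cell cannot be told apart. The labels number the libraries 1 to 3 in each group but do not state whether each came from its own culture. P-values here therefore reflect only the variation among libraries, which may be technical.

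YAP and TAZ are transcriptional coactivators at the end of the Hippo pathway. The kinases LATS1 and LATS2 phosphorylate both and hold them out of the nucleus, and inside it they bind TEAD factors on DNA and turn on genes for growth, matrix and cytoskeleton, of which CTGF and CYR61 are the usual reporters. The proteins share these partners but not all others, and lung cancers often carry one or both in an active state. The series was designed to set the effects of both on the transcriptome of lung cancer cells side by side.

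The 6 libraries held 18.4 to 20.8 M assigned reads each, and 15775 of 18978 listed genes passed the filter on low counts. Markers were checked against the label. CPM gives each gene's counts relative to its library's assigned total, in the usual unit. Marker values in this paragraph use plain totals, and later CPM values use TMM-scaled library sizes. VIM, CDH2 and ZEB1, mesenchymal genes that H1299 is known to express, summed to 2383 to 3464 CPM over the 6 libraries. Over the 9 H1299 libraries the keratins KRT7, KRT8 and KRT18 averaged above 1 CPM, while EPCAM and KRT19 were listed but did not. CDH1 and the lung secretory genes SFTPB, SFTPC and SCGB1A1 were not among the genes listed. NAPSA averaged above 1 CPM, and the lung factor NKX2-1, listed too, did not. Of 17 endothelial, fibroblast and smooth muscle markers 10 were listed. Their summed level was 15.2 to 19.9 CPM under siYAP, 15.7 to 17.7 under siTAZ and 8.28 to 9.59 in the controls. PECAM1, COL1A1, PDGFRB and ACTA2 averaged above 1 CPM, and CDH5, TEK, COL1A2, COL3A1 and LUM were not listed. Of 15 immune markers 5 were listed and only ITGAM was above 1 CPM (summed 2.12 to 2.93 CPM under siYAP, 4.95 to 8 under siTAZ); PTPRC, CD3E and CD14 were not listed.

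The targeted transcripts followed their labels. YAP1 (ENSG00000137693.13, chr11:102110461-102233423, GRCh38) stood at 12.8, 19.6 and 11.7 CPM in siYAP libraries 1 to 3, at 96.5, 105.9 and 100.5 CPM in siTAZ libraries 1 to 3, and at 83.6, 83.8 and 77.9 CPM in the controls. Its log2 difference, siYAP minus siTAZ, was -2.78 ± 0.15 (SE of the fit; adjusted p = 5.95e-07, edgeR quasi-likelihood test with Benjamini-Hochberg adjustment over all genes tested, as for every adjusted p below). WWTR1 (ENSG00000018408.14, chr3:149517235-149736714) stood at 172.8, 203.2 and 167.2 CPM under siYAP, at 36.1, 82.7 and 29 under siTAZ, and at 265.5, 276.5 and 229.3 in the controls (log2 1.88 ± 0.28, adjusted p = 0.00104). The depth of knockdown differed among libraries: siTAZ library 2 kept 32.2% of the control mean of WWTR1 against 14.1% and 11.3% in the other siTAZ libraries, and siYAP library 2 kept 24% of YAP1 against 15.7% and 14.4%. WWTR1 in the siYAP libraries was at 65 to 79% of its control mean, and YAP1 in the siTAZ libraries at 118.0 to 129.5% of its own.

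At an adjusted p below 0.05, 1846 of the 15775 genes tested (11.7%) differed between the knockdowns. Of these, 883 (5.60%) were higher under siYAP and 963 (6.10%) lower, and 263 were at least 2-fold apart, 105 of them higher and 158 lower. The siYAP and siTAZ libraries did not overlap for 1828 of the called genes, against 29.6% of all genes tested, which follows largely from the call itself. The median log2 difference of all genes was 0.01. As a description, with no test, the control mean lay between the knockdown means for 60.6% of called genes and for 72.2% of those at least 2-fold apart, compared with 26.3% of all genes tested. It lay above both for 21.7% of called genes and below both for 17.8%. Called genes were picked for a gap between the knockdown means, which leaves more room for a control mean between them. The larger share is therefore partly built in and draws no conclusion on direction from control. The counts moved with single libraries, to 374 higher and 519 lower without siTAZ library 3, 408 and 453 without siYAP library 3, 543 and 619 without siTAZ library 1, and 515 and 682 without siYAP library 1. With the replicate number as a block they were 1742 and 1657 (21.5% of genes tested in either direction).

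**Figure D1:**
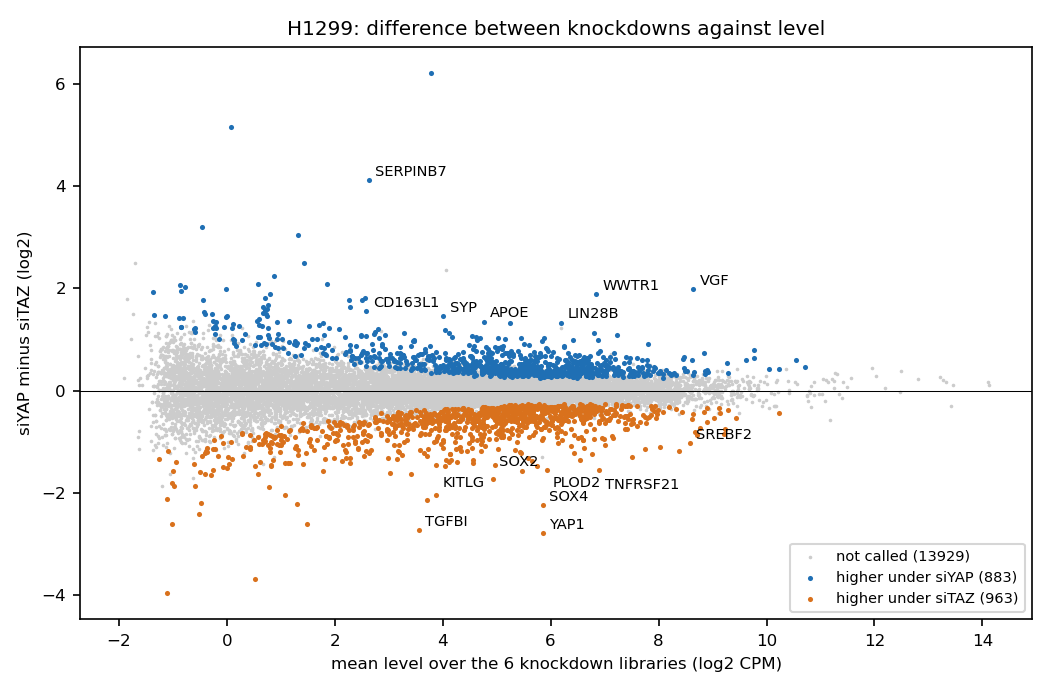
Log2 difference (siYAP minus siTAZ, vertical) against the mean level over the 6 knockdown libraries (log2 CPM, horizontal) for the 15775 genes tested in H1299; grey points were not called, blue points (883) were higher under siYAP and orange points (963) higher under siTAZ. Called genes lie on both sides of 0, and YAP1 and WWTR1, the targeted genes, lie at -2.78 and 1.88.

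Genes with the largest excess under siYAP included VGF, SERPINB7, LIN28B and SYP. VGF, a secreted neuropeptide precursor, was at 719.0, 555.8 and 635.4 CPM under siYAP and at 152.6, 185.1 and 146.9 under siTAZ, with controls at 207.4 to 260.3. Its difference was 3.94-fold (log2 1.98 ± 0.13, adjusted p = 3.44e-06), and every siYAP library stood above every siTAZ and control library. SERPINB7, a serine protease inhibitor, reached 14.6, 5.5 and 15.1 CPM under siYAP and 0.653, 0.703 and 0.66 under siTAZ (log2 4.11 ± 0.39, adjusted p = 0.0001). Controls at 2.44 to 3.78 CPM lay between the groups. LIN28B, an RNA-binding protein that blocks maturation of let-7 microRNAs, stood at 124.6, 86.7 and 102.4 CPM under siYAP against 37.7, 44.8 and 42.4 under siTAZ (log2 1.33 ± 0.13, adjusted p = 0.000109), again with controls between (64.9 to 82.2). SYP, the synaptic vesicle protein synaptophysin, was higher too (log2 1.46 ± 0.30, adjusted p = 0.00733), but its libraries nearly touched, with 14.5 CPM in siYAP library 3 and 12 in siTAZ library 2.

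The other coding genes with the largest excess under siYAP were LRRN4CL (1.81), SNCG, which encodes gamma-synuclein (1.77), the scavenger receptor relative CD163L1 (1.55), the lipid carrier APOE (1.35), the actin-binding coronin CORO1A (1.20), NAP1L5 (1.18), the protease inhibitor SPINT2 (1.15), the forkhead factor FOXD1 (1.13), RFLNA (1.12) and the matrix protease ADAMTS6 (1.12), all as log2 differences. Each had an adjusted p of 0.00367 or less and kept its call in all 6 fits that left out 1 library. Reads of SNCG, NAP1L5 and SPINT2 can come from genes on the opposite strand that overlap them (MMRN2, HERC3 and PPP1R14A), because the use of strand in counting is not given in the sources used here.

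Genes lower under siYAP were led by TGFBI, SOX4, MMP10, KITLG and SOX2. TGFBI, a secreted matrix protein named for its induction by TGF-beta, was at 2.06, 6.19 and 1.19 CPM under siYAP and at 19.3, 24.7 and 17.5 under siTAZ, a 6.62-fold gap (log2 -2.73 ± 0.43, adjusted p = 0.00161). Controls at 5.0 to 14.1 CPM lay below every siTAZ library. SOX4, an HMG-box transcription factor of progenitor and tumour cells, stood at 16.6, 29.8 and 14.7 CPM under siYAP and at 87.4, 113.6 and 86.5 under siTAZ (log2 -2.24 ± 0.36, adjusted p = 0.00176). Its controls (17.5, 50.8 and 15.7) overlapped the siYAP libraries, and every siTAZ library lay above every control. SOX2, a pluripotency factor, had a like layout at 13.2, 19.9 and 9.6 against 39.0, 60.1 and 40.8 CPM (log2 -1.72 ± 0.29, adjusted p = 0.00215; controls 12.8 to 30.4). KITLG, the ligand of the receptor KIT, was at 6.17, 7.95 and 3.04 against 22.3, 31.0 and 17.6 CPM (log2 -2.05 ± 0.33, adjusted p = 0.00158).

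For PLOD2 and TNFRSF21 the controls sat beside the siTAZ libraries and the siYAP libraries were the low ones. PLOD2, a lysyl hydroxylase that prepares collagen for crosslinking, was at 28.1, 39.5 and 25.5 CPM under siYAP, 103.5, 76.8 and 92.2 under siTAZ and 86.1 to 118.2 in controls (log2 -1.55 ± 0.16, adjusted p = 0.000137). TNFRSF21, a death receptor of the TNF receptor family, was at 59.5, 72.3 and 50.6 CPM against 213.8, 143.6 and 177.2 (log2 -1.55 ± 0.14, adjusted p = 9.26e-05; controls 142.7 to 152.8). CDKN2B, which encodes the CDK4/6 inhibitor p15, stood at 25.7, 36.2 and 23.1 against 74.9, 80.0 and 80.9 CPM (log2 -1.47 ± 0.15, adjusted p = 0.000134). Controls of CDKN2B at 48.2 to 67.3 CPM lay between the groups. The remaining genes of the top 15 on this side were the protease MMP10 (-2.14), the peptide hormone precursor ADM (-1.63), the planar polarity gene PRICKLE1 (-1.61), the TGF-beta feedback gene PMEPA1 (-1.58), the ubiquitin ligase RNF141 (-1.48), the repressor NFIL3 (-1.46), PLEKHG1 (-1.46) and YAP1 itself. All kept their calls when any of the 6 libraries was left out.

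**Figure D2:**
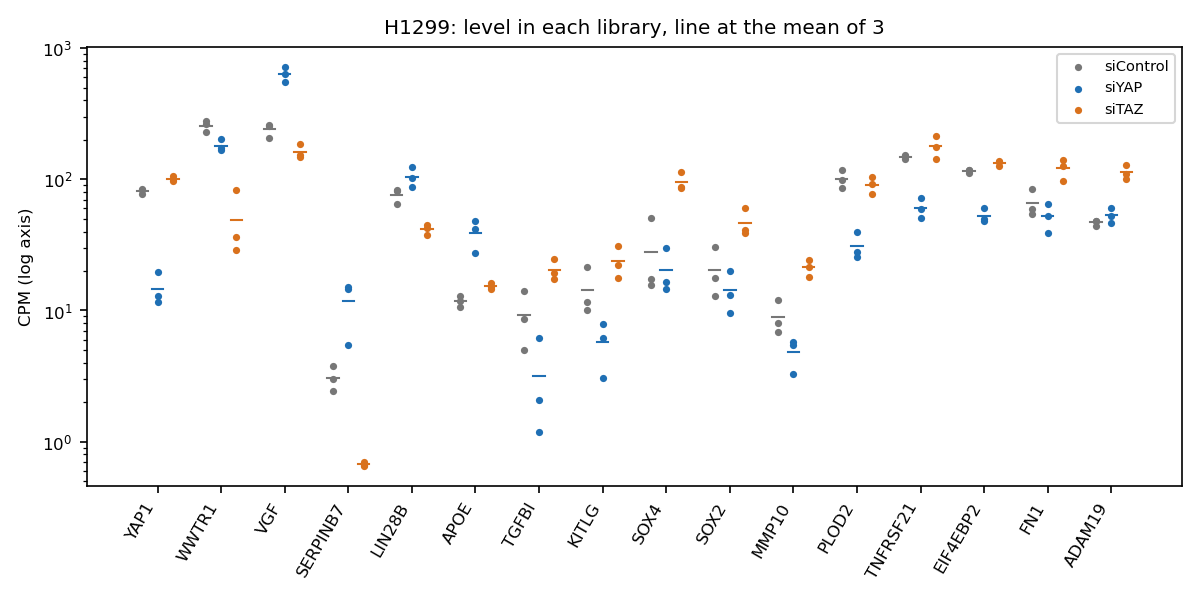
Level of 16 genes in the 9 H1299 libraries (CPM, log axis; points are libraries, short lines group means, grey siControl, blue siYAP, orange siTAZ). VGF and SERPINB7 stand highest under siYAP, SOX4 and SOX2 highest under siTAZ with controls and siYAP overlapping, and PLOD2 and EIF4EBP2 lowest under siYAP.

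Of 22 tested members of a signature of genes usually read as YAP/TAZ output, 3 were higher under siYAP, 1 was lower and 18 were not called, beside 11.7% called of all genes tested. Their median log2 was -0.08, with a range of -0.79 to 0.58. With the replicate block 4 were higher and 3 lower, beside 21.5% called of all genes. CTGF, a matricellular growth regulator, was at 59.9, 69.5 and 59.3 CPM under siYAP and at 49.1, 38.8 and 38.2 under siTAZ (log2 0.58 ± 0.13, adjusted p = 0.0136). All 6 libraries were below the controls (84.1 to 117.1 CPM), and without siTAZ library 3 the difference was not called (log2 0.52, adjusted p = 0.0705). CYR61, its close relative, was at 155.3, 173.0 and 165.9 against 180.0, 111.7 and 117.7 CPM, with the groups overlapping and both below controls at 257.5 to 523.2 (log2 0.27 ± 0.22, adjusted p = 0.481). CRIM1, a transmembrane BMP-binding protein, was higher under siYAP (log2 0.50 ± 0.15, adjusted p = 0.0488), and so was ASAP1, an ARF GTPase activator (log2 0.30 ± 0.09, adjusted p = 0.0486). CRIM1 kept its call only without siTAZ library 1 (adjusted p up to 0.197 in the other 5 fits that left out 1 library), and ASAP1 in none of the 6 fits (adjusted p up to 0.167). NUAK2, an AMPK-related kinase, went the other way, with 3.06, 5.98 and 3.8 CPM under siYAP and 8.0, 7.33 and 6.86 under siTAZ, beside controls at 6.71 to 7.98 (log2 -0.79 ± 0.20, adjusted p = 0.0238). It lost its call without siTAZ libraries 1 or 3 or siYAP libraries 1 or 3 (adjusted p up to 0.103).

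NUAK2 was the only called signature gene with an entry in the RefSeq promoter table, and the 250 bases before its start (chr1:205321746-205321995, minus strand, GRCh38.p14) are shown because they hold the TEAD motif GGAATG, read on both strands and marked in capitals, 197 and 18 bases before the start.
NUAK2: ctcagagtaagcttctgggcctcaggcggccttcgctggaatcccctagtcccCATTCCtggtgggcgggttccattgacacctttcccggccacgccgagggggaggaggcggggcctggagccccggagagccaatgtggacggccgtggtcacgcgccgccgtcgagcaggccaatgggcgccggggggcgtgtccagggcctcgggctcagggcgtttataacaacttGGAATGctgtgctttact
The motif is common: 10.7% of the promoters of tested genes hold it in the 300 bases searched (250 before the start and 50 after), 10.8% of those called higher under siYAP and 11.9% of those called lower. These matches are letters in a window and not measured binding sites. The table matched 10536 of the 15775 tested genes (66.8%).

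Beside 11.7% called of all genes tested, the 33 tested components of the Hippo pathway, targets included, had 1 higher (WWTR1) and 5 lower under siYAP (median log2 -0.06). Besides YAP1 the lower ones were SAV1, the scaffold of the MST kinases, at 46.8, 46.2 and 48.3 against 61.9, 65.5 and 68.7 CPM (log2 -0.47 ± 0.09, adjusted p = 0.00514), VGLL4, a TEAD-binding competitor of YAP (-0.54), LIMD1, a LATS-binding scaffold (-0.41), and LATS1 (-0.28). SAV1 kept its call throughout, whereas LATS1 (adjusted p = 0.0478) lost its call without any 1 of 5 libraries and kept it only without siYAP library 2 (adjusted p up to 0.19). VGLL4 lost its call without siTAZ library 3 (adjusted p = 0.0513) or siYAP library 3 (0.0529), and LIMD1 without siTAZ library 1 or 3 or siYAP library 2 or 3 (up to 0.138). TEAD1 was at -0.30 ± 0.12 (adjusted p = 0.117) and TEAD4 at 0.13 ± 0.10 (adjusted p = 0.474). The count of lower members was 2 without siTAZ library 3 or siYAP library 3, and 3 without siTAZ library 1. With the replicate block 9 were lower and 2 higher, beside 21.5% called of all genes tested.

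Of the 35 lists with at least 3 tested members, the NF-kB list had the lowest median. Of 19 tested members, 9 were lower under siYAP and 0 higher, beside 6.10% lower of all genes tested. The median log2 was -0.65 beside 0.01 for all genes. NF-kB is the transcription factor family of inflammation and survival, and it switches on its own inhibitors and subunits. The range over fits that left out 1 library was 8 to 10 lower. TNFAIP3 (A20), a ubiquitin-editing brake on the pathway, was at 11.7, 10.6 and 9.22 CPM under siYAP and 30.1, 19.6 and 24.9 under siTAZ (log2 -1.24 ± 0.16, adjusted p = 0.000372). Controls at 14.7 to 18.8 CPM fell between the groups. RELB, the subunit of the alternative arm, was at 92.6, 92.3 and 73.1 against 188.8, 164.7 and 146.2 CPM (log2 -0.95 ± 0.13, adjusted p = 0.000788). TRAF1, an adaptor of TNF receptors, was at 89.8, 91.9 and 75.0 against 200.1, 159.5 and 126.5 CPM (log2 -0.92 ± 0.17, adjusted p = 0.00408). BIRC3 (cIAP2), an inhibitor of cell death, was at 104.9, 82.7 and 60.8 against 214.1, 150.3 and 156.8 CPM (log2 -1.07 ± 0.20, adjusted p = 0.00434). In none of these 4 genes did the siYAP and siTAZ libraries overlap, as was so for 1828 of the 1846 called genes.

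The inhibitors NFKBIA (-0.83) and NFKBIE (-0.46), the precursor subunit NFKB2 (-0.76), the adhesion receptor ICAM1 (-1.24) and the macrophage growth factor CSF1 (-1.17) were lower as well. CSF1 was the weakest: its groups overlapped (11.8, 4.64 and 5.51 against 23.6, 10.1 and 15.8 CPM), and it lost its call without siTAZ library 1 or 3 or siYAP library 2 or 3 (adjusted p up to 0.129). The other subunits were not called, with REL at -0.49 ± 0.15 (adjusted p = 0.0517), NFKB1 at -0.30 ± 0.09 (adjusted p = 0.0553) and RELA at 0.03 ± 0.09 (adjusted p = 0.871). CXCL1 and CXCL2, chemokines induced by NF-kB, were not called either (adjusted p = 0.452 and 0.759). ITGAM, listed as an immune marker, moved with this group at 1.6, 2.35 and 1.28 against 7.45, 3.86 and 4.22 CPM (log2 -1.57 ± 0.33, adjusted p = 0.00799), while 10 of the 15 immune markers, PTPRC among them, were not listed. The part of other cells in these values was not tested.

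Promoters of 6 of the 9 called NF-kB genes were in the RefSeq table. The NF-kB motif, written here as GGGNN followed directly by TTTCC and read on both strands, was found in 3 of them (NFKBIA, TNFAIP3 and BIRC3), and in 2.14% of the promoters of all tested genes, 2.81% of those called lower and 1.57% of those called higher. A pair of them is shown, with the matches in capitals, because these genes carry the larger differences of the 3 with a match: TNFAIP3 (chr6:137867009-137867258, plus strand, matches 67 and 55 bases before the start) and BIRC3 (chr11:102317234-102317483, plus strand, match 199 bases before the start).
TNFAIP3: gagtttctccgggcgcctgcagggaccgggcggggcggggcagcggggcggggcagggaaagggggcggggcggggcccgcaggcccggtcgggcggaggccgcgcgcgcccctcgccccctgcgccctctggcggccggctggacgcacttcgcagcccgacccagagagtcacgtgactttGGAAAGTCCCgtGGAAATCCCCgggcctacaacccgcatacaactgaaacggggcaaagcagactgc
BIRC3: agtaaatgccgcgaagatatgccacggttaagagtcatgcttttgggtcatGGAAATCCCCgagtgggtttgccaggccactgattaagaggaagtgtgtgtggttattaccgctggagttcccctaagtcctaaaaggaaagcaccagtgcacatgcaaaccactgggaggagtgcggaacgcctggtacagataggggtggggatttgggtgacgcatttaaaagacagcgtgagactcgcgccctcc
Both come from build GRCh38.p14 and cover the 250 bases before the start. A match describes the letters and is not a measurement of binding. The list was picked for genes of this pathway, so a larger share with the NF-kB motif is partly built in. Its uncalled members were not set beside the called ones, so the share says nothing about the difference between knockdowns.

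TGF-beta is a secreted cytokine stored in the matrix by latency proteins, and its SMAD signal induces its own inhibitors. Of 25 tested members of this pathway 9 were lower under siYAP and 1 higher, beside 11.7% called of all genes tested. The median log2 was -0.39. With the replicate block 15 were lower, beside 21.5% called of all genes. The ligand TGFB1 was at 437.6, 455.9 and 394.7 CPM under siYAP and 642.9, 620.1 and 596.4 under siTAZ, with controls between at 513.6 to 549.5 (log2 -0.53 ± 0.09, adjusted p = 0.00203). LTBP1, which anchors latent TGF-beta in the matrix, was at 60.8, 52.5 and 46.2 against 102.1, 89.0 and 86.8 CPM (log2 -0.80 ± 0.12, adjusted p = 0.0011). TGIF1, a corepressor of SMADs, was at 54.0, 51.8 and 48.0 against 82.9, 90.9 and 81.1 CPM (log2 -0.73 ± 0.08, adjusted p = 0.000252). For LTBP1 the controls (45.1 to 59.3 CPM) overlapped the siYAP libraries, and for TGIF1 they lay just above them.

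PMEPA1, a decoy that removes SMADs from the receptor, was at 23.1, 29.3 and 14.5 against 74.7, 66.8 and 58.8 CPM (log2 -1.58 ± 0.23, adjusted p = 0.00107). BMP4, a ligand of the related BMP branch, stood at -1.21 ± 0.24 (adjusted p = 0.0058). The receptor TGFBR1 was lower (-0.47 ± 0.10, adjusted p = 0.0105; without siYAP library 3 adjusted p = 0.063), and the receptor TGFBR2 was the member that was higher (0.29 ± 0.09, adjusted p = 0.0446). TGFBR2 kept its call only without siYAP library 2 (adjusted p up to 0.164). SKIL, a SMAD corepressor, and ID2, a BMP-induced inhibitor of helix-loop-helix factors, were lower at -0.74 and -0.88, each with a call that was lost in 4 of the fits that left out 1 library: siTAZ 1 or 3 and siYAP 2 or 3 for SKIL (adjusted p up to 0.129), siTAZ 1 or 2 and siYAP 1 or 3 for ID2 (up to 0.138).

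Matrix, protease and adhesion genes were taken as 5 lists, read beside the 11.7% called of all genes tested. Of 26 extracellular matrix genes 6 were lower under siYAP and 0 higher (median -0.25), 3 of 14 collagen-modifying enzymes were lower and 0 higher (median -0.16), 9 of 25 metalloproteinases and inhibitors were lower and 2 higher (median -0.30), 7 of 28 integrin and focal adhesion genes were lower and 1 higher (median -0.03), and 4 of 15 mesenchymal genes were lower and 0 higher (median -0.18). FN1, the matrix glycoprotein fibronectin, was at 52.9, 65.2 and 38.7 CPM under siYAP and 126.7, 140.8 and 97.3 under siTAZ (log2 -1.22 ± 0.19, adjusted p = 0.0016). Its controls (54.5 to 84.9) overlapped the siYAP libraries. COL7A1, the anchoring fibril collagen, was at 12.7, 15.4 and 12.2 against 22.3, 18.0 and 22.5 CPM (log2 -0.64 ± 0.12, adjusted p = 0.00489). LAMB3, a laminin chain of basement membranes, was lower at -0.51 ± 0.12 (adjusted p = 0.0132) and lost its call without siTAZ library 1 (adjusted p = 0.0562) or siYAP library 3 (0.0749). The matrix count was 3 without siTAZ library 1 or siYAP library 3. With the replicate block it was 11 lower and 3 higher, beside 21.5% called of all genes tested.

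Among proteases, MMP10 (stromelysin-2) was at 3.26, 5.77 and 5.42 CPM under siYAP and 21.6, 18.0 and 24.3 under siTAZ, a gap with no overlap (log2 -2.14 ± 0.22, adjusted p = 0.000137). ADAM19, a membrane sheddase, was at 60.1, 46.7 and 52.4 against 127.9, 100.8 and 110.3 CPM (log2 -1.09 ± 0.11, adjusted p = 0.00011). PLAT, tissue plasminogen activator, was at 78.7, 74.8 and 75.6 against 121.5, 111.0 and 123.8 CPM (log2 -0.64 ± 0.08, adjusted p = 0.000414). The gelatinase MMP2 (-1.13), the collagenase MMP1 (-0.93) and the membrane protease MMP15 (-1.37) were lower and kept their calls in every fit that left out 1 library. In ADAM19 and MMP2 the controls (43.9 to 48.5 and 8.83 to 14.9 CPM) overlapped the siYAP libraries. The protease members that were higher under siYAP were ADAMTS6 and ADAM12. ADAM12 was near the detection limit, at 1.2, 0.641 and 2.09 CPM against 0.163, 0.1 and 0.152 (adjusted p = 0.00203; the fitted log2 of 3.20 ± 0.53 depends on the prior count).

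The vitronectin receptor chain ITGAV was at 85.1, 75.5 and 62.0 CPM under siYAP and 146.3, 117.2 and 120.8 under siTAZ (log2 -0.79 ± 0.12, adjusted p = 0.00155). ITGB8 (-1.22), ITGB3 (-0.84) and ITGB5 (-0.53), chains that pair with ITGAV, were lower as well. ITGB3 lost its call without siTAZ library 3 (adjusted p = 0.0638) and ITGB5 without siYAP library 3 (0.0556). TLN2, a talin that activates integrins, was lower (-0.67 ± 0.12, adjusted p = 0.00325). FERMT2 and FERMT1, the kindlins 2 and 1, moved in opposite directions: FERMT2 was at 51.1, 47.9 and 48.7 CPM under siYAP and 26.4, 34.4 and 29.5 under siTAZ (log2 0.71 ± 0.10, adjusted p = 0.000677), and FERMT1 was at 43.6, 40.2 and 47.2 against 62.6, 75.3 and 63.1 (log2 -0.62 ± 0.13, adjusted p = 0.00765). For FERMT2 the controls (48.0 to 49.5) sat with the siYAP libraries. SPARC, a collagen-binding matricellular protein, was lower (-1.35 ± 0.34, adjusted p = 0.0206) at 0.852 to 1.33 against 2.23 to 3.21 CPM, and lost its call without siTAZ library 2 or siYAP library 1 or 2 (adjusted p up to 0.0748).

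Of the collagen enzymes, PLOD2 is described above, and P4HA2, a prolyl hydroxylase, and COLGALT2, a collagen galactosyltransferase, were lower at -0.45 and -0.56. The collagen enzyme count was 1 without siTAZ library 1 or 3 or siYAP library 2 or 3. P4HA2 had overlapping groups and lost its call without siTAZ library 1 or 3 or siYAP library 2 or 3 (adjusted p up to 0.156). COLGALT2 kept its call only without siTAZ library 2 (adjusted p up to 0.197). The mesenchymal genes called were FN1, MMP2, SPARC and CDH2, N-cadherin (-0.43 ± 0.13, adjusted p = 0.0405; lost without siTAZ library 1 or 3 or siYAP library 2 or 3, up to 0.156), and 2 of them were called without siYAP library 2. VIM, ZEB1 and SNAI2 were not called (adjusted p = 0.531, 0.803 and 0.525).

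The ribosome biogenesis list had the highest median. Its products make ribosomal RNA and assemble ribosomal subunits in the nucleolus, and many are known targets of the transcription factor MYC. Of 35 tested, 18 were higher under siYAP and 0 lower, beside 5.60% higher of all genes tested. The median log2 was 0.30 (range -0.16 to 0.63), and 34 had a positive sign. NOP2, an rRNA methyltransferase, was at 127.5, 118.2 and 126.8 CPM under siYAP and 89.0, 74.9 and 77.6 under siTAZ (log2 0.63 ± 0.09, adjusted p = 0.00115). NOLC1, a nucleolar chaperone, was at 180.6, 172.3 and 180.4 against 125.8, 114.7 and 107.5 CPM (log2 0.62 ± 0.09, adjusted p = 0.00132). NOP16 was at 33.8, 34.1 and 40.1 against 23.5, 25.1 and 24.7 CPM (log2 0.56 ± 0.10, adjusted p = 0.00233). Controls lay just below the siYAP libraries for NOP2 (96.9 to 117.7 CPM) and among them for NOLC1 and NOP16, and in all 3 genes the siTAZ libraries were the lowest.

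The count of this list moved with single libraries. It was 7 without siTAZ library 3, 8 without siYAP library 3 and 11 without siTAZ library 1, and 22 with the replicate block, with 0 lower in each. With the block 1742 of the 15775 genes tested were higher, and 21.5% were called in either direction. MYC itself, also a member, was at 77.6, 104.2 and 112.3 CPM under siYAP and 69.2, 70.0 and 72.9 under siTAZ, all below its controls at 134.6 to 142.1 (log2 0.47 ± 0.11, adjusted p = 0.0165). It kept its call in 2 of the 6 fits that left out 1 library, losing it without siTAZ library 1 or 3 or siYAP library 2 or 3 (adjusted p up to 0.0919). The E-box CACGTG, the core motif bound by MYC, was found in 4 of the 14 called ribosome genes with a promoter in the table (NOP2, NOP14, BYSL and MYBBP1A). It was in 10.1% of the promoters of all tested genes and 11.5% of those called higher. The TEAD motif was found in 3 of the 14 (NHP2, BYSL and LYAR), beside 10.7% of all tested. A role of either factor was not tested.

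**Figure D3:**
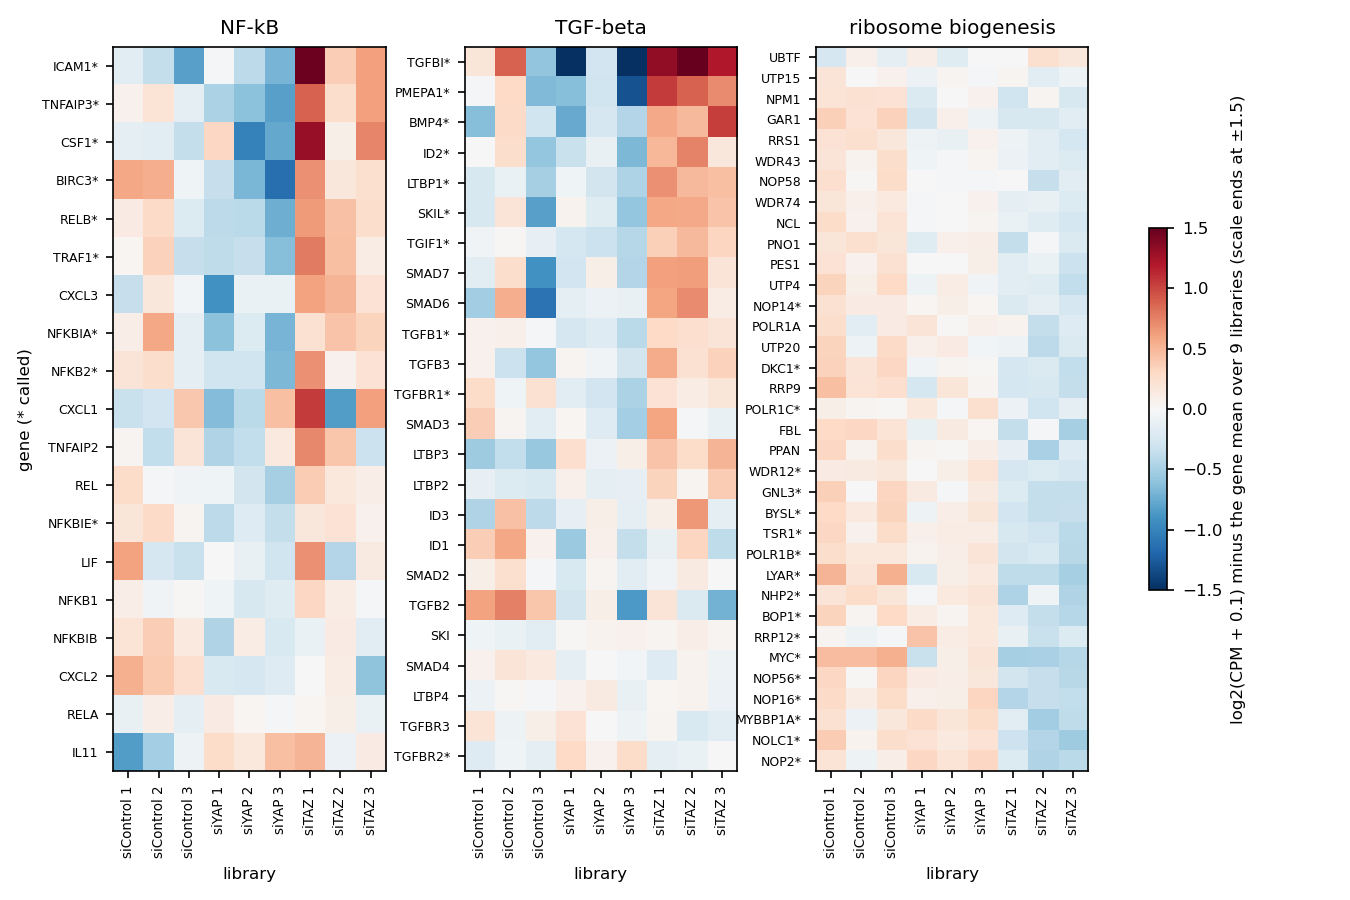
Level of tested members of 3 lists (NF-kB, TGF-beta without 1 uncalled member, and ribosome biogenesis) in the 9 H1299 libraries, as log2(CPM + 0.1) minus the gene's mean over the libraries, with the colour scale ending at ±1.5, genes ordered by log2 difference and called genes starred. Starred NF-kB genes and the starred TGF-beta genes other than TGFBR2 are redder in the siTAZ than in the siYAP columns, and starred ribosome genes are bluer in the siTAZ columns.

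Regulators of translation downstream of mTOR differed for single genes. EIF4EBP2, a repressor of cap-dependent translation, was at 48, 60 and 49.5 CPM under siYAP, at 126.4, 138.0 and 136.3 under siTAZ and at 111.5 to 118.8 in controls (log2 -1.35 ± 0.09, adjusted p = 5.88e-06). Its relative EIF4EBP1 was at 31.1, 47.7 and 38.1 against 51.1, 68.1 and 56.0 CPM, with all 6 below controls at 78.4 to 84.1 (log2 -0.58 ± 0.14, adjusted p = 0.0153; without siYAP library 3 adjusted p = 0.0662). PDCD4, an inhibitor of the helicase eIF4A, was lower too (-0.44 ± 0.09, adjusted p = 0.00597). DEPTOR, a subunit that restrains mTOR, was the remaining lower member (-1.01 ± 0.26, adjusted p = 0.0242; lost without siTAZ library 2, siYAP library 1 or siYAP library 3, adjusted p up to 0.112). In all, 4 of 18 members were lower and 2 higher, beside 11.7% called of all genes tested. The higher ones were the GATOR1 subunits DEPDC5 (0.41) and NPRL3 (0.36). DEPDC5 kept its call only without siYAP library 3 (adjusted p up to 0.151), and NPRL3 lost its call without siTAZ library 1 or 3 or siYAP library 2 or 3 (up to 0.143).

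Counts of called DNA replication and mitosis genes are read beside the 11.7% called of all genes tested (21.5% with the replicate block). Of 44 replication genes 4 were higher under siYAP and 0 lower (median 0.24, 41 with a positive sign), and 11 were higher with the replicate block. Of 48 mitosis and kinetochore genes 1 was lower and 0 higher (median -0.24, 42 with a negative sign), and 8 were lower with the block. ORC1, the large subunit of the origin recognition complex, was at 30.3, 39.9 and 29.9 CPM under siYAP and 20.3, 20.2 and 18.8 under siTAZ (log2 0.75 ± 0.13, adjusted p = 0.00316). CDC6, the helicase loader, was at 42.5, 49.9 and 45.7 against 32.0, 27.2 and 27.3 CPM (log2 0.67 ± 0.13, adjusted p = 0.00484). Controls of CDC6 (50.7 to 74.9 CPM) lay above every knockdown library, and controls of ORC1 (36.7 to 50.7) above all but siYAP library 2. MCM6, a subunit of the replicative helicase, was at 0.41 ± 0.09 (adjusted p = 0.0117; without siTAZ library 3 adjusted p = 0.059), and UHRF1, which copies DNA methylation, at 0.45 ± 0.12 (adjusted p = 0.0317; lost without siTAZ library 2 or 3 or siYAP library 1 or 3, up to 0.127).

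The mitotic gene called was CENPF, a kinetochore protein of late cell cycle, at 73.3, 98.3 and 61.9 CPM under siYAP and 131.4, 110.5 and 103.3 under siTAZ, below controls at 142.0 to 211.1 (log2 -0.56 ± 0.17, adjusted p = 0.0422). It lost its call without siTAZ library 1 or 3 or siYAP library 1 or 3 (adjusted p up to 0.173). The mitotic count moved with single libraries. Without siYAP library 2, 14 members were lower, and without both libraries numbered 2 the count was 10. Without siTAZ library 1 or 3 or siYAP library 1 or 3 it was 0. Of 26 homologous recombination genes 1 was higher, XRCC2, which acts in strand exchange (0.65 ± 0.19, adjusted p = 0.0382), which kept its call only without siYAP library 3 (adjusted p up to 0.15). Among 23 G1 cyclins, E2F factors and CDK inhibitors 3 were higher and 4 lower. CCNE2, cyclin E2, was higher (0.70 ± 0.16, adjusted p = 0.0108; 0.0614 without siTAZ library 3), and CDK6 was lower at 160.4, 172.8 and 115.2 against 282.8, 221.6 and 217.4 CPM (log2 -0.69 ± 0.15, adjusted p = 0.00895). CDKN2B was described above, and CCND1, cyclin D1, was not called (0.03 ± 0.09, adjusted p = 0.846).

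Of 23 BCL2 family and death genes 7 were lower and 1 higher (median -0.14). Of 22 p53 target genes 5 were lower and 1 higher (median -0.08). Both counts stand beside 11.7% called of all genes tested. H1299 is known as a line without p53 protein. PMAIP1 (NOXA), a BH3-only activator of apoptosis on both lists, was at 6.52, 9.5 and 7.17 CPM under siYAP and 17.6, 18.8 and 19.3 under siTAZ, with controls at 18.6 to 19.4 beside the siTAZ libraries (log2 -1.27 ± 0.13, adjusted p = 0.000137). BMF, a BH3-only protein tied to the cytoskeleton, was at 35.6, 28.6 and 19.6 against 86.7, 63.8 and 66.6 CPM, with controls at 17.5 to 34.0 beside the siYAP libraries (log2 -1.38 ± 0.22, adjusted p = 0.00172). BCL2L11 (BIM), another activator, was lower at -0.77 ± 0.15 (adjusted p = 0.00509). Inhibitors of death were lower too: BIRC3, and BIRC2 (cIAP1; -0.41 ± 0.11, adjusted p = 0.0263; lost without siTAZ library 1 or 3 or siYAP library 1 or 3, up to 0.108). BBC3 (PUMA) stood at -0.62 ± 0.17 (adjusted p = 0.0284; lost without siTAZ library 2 or 3 or siYAP library 1 or 3, up to 0.128), and TP53INP1 at -0.42 ± 0.10 (adjusted p = 0.0156; lost without siTAZ library 3 or siYAP library 3, up to 0.0804). The count of lower p53 targets was 1 without siTAZ library 3 or siYAP library 3 and 2 without siYAP library 1. The count of lower death genes was 4 without siTAZ library 3, siYAP library 1 or siYAP library 3.

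Of 27 cholesterol synthesis and SREBP genes 1 was lower under siYAP and 1 higher (median 0.07), below the 11.7% called of all genes tested. Of 9 genes of cholesterol efflux 2 were lower and 2 higher (median 0.04). SREBF2, the master regulator of cholesterol synthesis, was at 234.0, 315.6 and 207.4 CPM under siYAP, at 552.1, 489.8 and 492.0 under siTAZ and at 552.8 to 627.1 in controls (log2 -1.02 ± 0.13, adjusted p = 0.000486). The other 25 cholesterol genes were not called, among them the synthesis enzymes HMGCS1 (-0.38) and SQLE (-0.31). APOE, which carries cholesterol out of cells, was at 48.1, 27.2 and 42.1 CPM under siYAP against 15.2, 14.7 and 16.1 under siTAZ (log2 1.35 ± 0.17, adjusted p = 0.000345). ABCA1, the pump that loads it, was at 29.7, 26.6 and 22.3 against 58.7, 48.9 and 73.0 CPM (log2 -1.20 ± 0.15, adjusted p = 0.000353). PLTP, a phospholipid transfer protein, was higher at 0.39 ± 0.11 (adjusted p = 0.0305), a call lost without siTAZ library 1 or 3 or siYAP library 1 or 3 (up to 0.123).

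As a reference for the 2 lists that follow, 11.7% of all genes tested were called, and 21.5% with the replicate block. Of 28 glycolysis and hypoxia genes 5 were higher under siYAP and 2 lower (median 0.14). In this list 3 were higher without siTAZ library 1 or 3 or siYAP library 1 or 3, and 9 with the replicate block. HK2, hexokinase 2, the entry enzyme of glycolysis, was at 48.3, 45.4 and 49.1 CPM under siYAP and 25.5, 22.8 and 22.8 under siTAZ, with controls at 38.1 to 51.1 (log2 1.01 ± 0.11, adjusted p = 0.000197). PGAM1, phosphoglycerate mutase, was at 40.6, 39.0 and 45.6 against 21.1, 28.2 and 20.9 CPM (log2 0.83 ± 0.12, adjusted p = 0.000761). PFKM, phosphofructokinase, stood at 0.59 ± 0.08 (adjusted p = 0.000819). The lower members, ADM and the glucose transporter SLC2A3 (-0.90), are classical hypoxia genes. Of 25 amino acid stress and serine synthesis genes 4 were higher and 1 lower (median 0.24), 2 were higher without siTAZ library 3 or siYAP library 3, 1 without siYAP library 1, and 9 with the replicate block. SHMT2, the mitochondrial serine hydroxymethyltransferase, was at 99.0, 110.3 and 110.0 against 67.0, 82.3 and 69.8 CPM (log2 0.54 ± 0.10, adjusted p = 0.0038). VLDLR, a lipoprotein receptor induced by ATF4, was higher (0.64 ± 0.14, adjusted p = 0.0117; 0.0588 without siYAP library 1), as was PHGDH, the entry enzyme of serine synthesis (0.46 ± 0.12, adjusted p = 0.0232; lost without siTAZ library 1 or 3 or siYAP library 1 or 3, up to 0.097).

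All counts in this paragraph stand beside 11.7% called of all genes tested (21.5% with the replicate block). Of 30 nuclear genes of oxidative phosphorylation 2 were higher and 1 lower (median 0.12), near that share. The lower one was SDHD, a subunit of succinate dehydrogenase, at 21.1, 31.9 and 21.3 against 38.7, 47.5 and 40.5 CPM (log2 -0.77 ± 0.14, adjusted p = 0.00355). NDUFS3 of complex I (0.40 ± 0.09, adjusted p = 0.0116; 0.0599 without siTAZ library 3) and COX5A of complex IV (0.28 ± 0.08, adjusted p = 0.0314; kept only without siTAZ library 2, up to 0.121) were higher. With the block 7 were higher, 7 without siTAZ library 2 and 0 without siTAZ library 3. Of 22 NRF2 targets, genes of the antioxidant response, 2 were higher and 2 lower (median 0.00): HMOX1, heme oxygenase 1, was at 42.6, 44.4 and 44.0 against 25.4, 27.0 and 19.8 CPM (log2 0.86 ± 0.15, adjusted p = 0.00222), and OSGIN1 at 43.5, 46.2 and 48.0 against 28.8, 30.7 and 23.1 CPM (log2 0.74 ± 0.11, adjusted p = 0.00127). The lower members were TKT, transketolase, at 256.1, 299.0 and 281.9 against 337.9, 395.7 and 349.6 CPM (log2 -0.37 ± 0.09, adjusted p = 0.021), and NFE2L2, which encodes NRF2 itself (-0.34 ± 0.10, adjusted p = 0.0481). TKT lost its call without siTAZ library 3 or siYAP library 1 or 3 (adjusted p up to 0.0762), and NFE2L2 in each of the 6 fits that left out 1 library (up to 0.193), so that 0 members were lower without siTAZ library 3 or siYAP library 1 or 3. NQO1, another such target, was not called (-0.24 ± 0.09, adjusted p = 0.112). Of 19 genes of the unfolded protein response 2 were higher and 2 lower. The chaperone HYOU1 was at 195.3, 168.7 and 177.6 against 105.7, 116.3 and 103.8 CPM (log2 0.73 ± 0.11, adjusted p = 0.000951), and the sensor ERN1 (IRE1) was lower (-0.37 ± 0.09, adjusted p = 0.0197; lost without siTAZ library 1 or 3 or siYAP library 3, up to 0.101).

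Of 20 WNT ligands and antagonists 4 were lower under siYAP and 1 higher. This count and that of the receptor tyrosine kinase list below stand beside 11.7% called of all genes tested. TCF7, a WNT-responsive DNA-binding factor, was at 28.8, 29.2 and 24.5 against 69.0, 69.1 and 66.3 CPM (log2 -1.31 ± 0.16, adjusted p = 0.000345). AXIN2, the feedback inhibitor induced by WNT, was at 5.16, 6.03 and 5.37 against 10.4, 12.5 and 14.6 CPM (log2 -1.18 ± 0.17, adjusted p = 0.000952). The ligand WNT7B was lower at 1.23 to 1.66 against 3.0 to 4.06 CPM (log2 -1.26 ± 0.24, adjusted p = 0.00473). Controls of TCF7 and AXIN2 overlapped the siYAP libraries, and all siTAZ libraries lay above them. Of 24 receptor tyrosine kinases and ligands 2 were higher and 2 lower: IGFBP6, a binding protein of IGF2, was higher (0.78 ± 0.13, adjusted p = 0.00176), HBEGF, an EGF receptor ligand, was higher (0.81 ± 0.19, adjusted p = 0.0162; 0.0625 without siYAP library 3), and PDGFB was lower beside KITLG (-0.97 ± 0.20, adjusted p = 0.00817; 0.0505 without siYAP library 3).

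Of 9 lung lineage and SOX genes SOX4, SOX2 and SOX13 were lower, the last at 18.3, 18.8 and 17.7 against 26.0, 24.2 and 26.7 CPM (log2 -0.49 ± 0.09, adjusted p = 0.00373). Of 26 immediate early factors 3 were higher and 4 lower. Counts of this paragraph stand beside 11.7% called of all genes tested, and that of the interferon list below is near this share. The AP-1 relatives FOSL1 and FOSL2 had opposite signs: FOSL1 was at 283.7, 230.9 and 363.0 against 173.5, 116.6 and 176.0 CPM (log2 0.91 ± 0.19, adjusted p = 0.00842; 0.0505 without siYAP library 3), and FOSL2 at 49.6, 49.9 and 34.8 against 76.1, 82.6 and 62.5 CPM (log2 -0.72 ± 0.14, adjusted p = 0.00575). Of 27 interferon and antigen presentation genes 4 were lower and 0 higher (median -0.05): IRF1, a factor shared by interferon and NF-kB signalling, was at 12.9, 11.2 and 11.1 against 30.4, 23.9 and 24.1 CPM (log2 -1.15 ± 0.13, adjusted p = 0.000234), and the class I heavy chain HLA-B (-0.49 ± 0.10, adjusted p = 0.00527) was lower. Reads of HLA genes can be shared among near-identical class I copies, so this value is uncertain.

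Of 15 neuronal secretory genes 4 were higher and 3 lower (median 0.18). This count and those of the ABC and epithelial lists below stand beside 11.7% called of all genes tested. Besides VGF and SYP, UNC13A, a priming factor of synaptic vesicles, was at 8.97, 7.05 and 8.31 against 3.65, 3.86 and 4.11 CPM (log2 1.07 ± 0.16, adjusted p = 0.00127), and SCG3, a granin of secretory granules, was higher at a low level (2.28 to 2.62 against 0.559 to 1.2 CPM; log2 1.57 ± 0.27, adjusted p = 0.00242). The lower members were SNAP25 (-0.84), NPTXR (-0.65) and CPE (-0.50), and without siTAZ library 3 or siYAP library 3 none of these 3 was called (adjusted p up to 0.131). Of 10 ABC exporters 2 were higher and 1 lower: ABCC3, a conjugate pump, was at 14.1, 11.2 and 12.8 against 29.3, 16.9 and 35.7 CPM (log2 -1.10 ± 0.24, adjusted p = 0.00975; 0.0592 without siTAZ library 3), and the lipid transporters ABCA7 (0.46 ± 0.10, adjusted p = 0.00953; 0.0583 without siTAZ library 3) and ABCA3 (0.34 ± 0.10, adjusted p = 0.0425; kept only without siYAP library 2, up to 0.191) were higher. Of 14 epithelial genes 2 were higher and 1 lower: KRT18 (0.35 ± 0.10, adjusted p = 0.0297) and KRT8 (0.38 ± 0.11, adjusted p = 0.0386), which overlap each other on opposite strands, kept their calls in 2 of the 6 fits, and LSR, a tight junction receptor (-0.34 ± 0.10, adjusted p = 0.0455), in 1. These 3 calls were lost without siTAZ library 1 or 3 or siYAP library 3, those of the keratins also without siYAP library 1 and that of LSR without siTAZ library 2 or siYAP library 2 (adjusted p up to 0.149).

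With the replicate block further list counts moved by more than 1.5 times: the signature had 3 lower, WNT genes 4 higher, receptor tyrosine kinase genes 5 higher and 7 lower, epithelial genes 4 higher and 3 lower, interferon genes 7 lower, p53 targets 8 lower, collagen enzymes 5 lower, ABC exporters 4 higher and 3 lower, cholesterol genes 3 higher, G1 genes 5 higher, NRF2 targets 5 higher and genes of the unfolded protein response 4 higher. With this block 21.5% of all genes tested were called. Small counts also fell with single libraries. Without siTAZ library 3 the signature had 0 called genes, the epithelial list 0, ABC exporters 0, the G1 list 1 higher and 2 lower, replication 2 higher, and immediate early factors 1 higher and 3 lower. Without siYAP library 3 the G1 list had 1 higher and 2 lower, receptor tyrosine kinase genes 1 and 1, immediate early factors 0 and 1, and epithelial genes 0.

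A few lists had no called gene in the fit without the block. Of 25 actin and SRF target genes 0 were called by edgeR, 6 had an unadjusted p below 0.05, and DESeq2 called 2 higher and 3 lower. With the replicate block edgeR called 3 higher and 4 lower, beside 21.5% called of all genes tested. Without siTAZ library 2 it called 1 higher and 3 lower. The member with the smallest p was TPM1, a tropomyosin, at 56.8, 54.9 and 54.2 against 68.8, 64.3 and 66.1 CPM (log2 -0.26 ± 0.08, adjusted p = 0.0537; with the block adjusted p = 0.0206). Of 13 mitochondrially encoded transcripts 0 were called by edgeR, 1 had an unadjusted p below 0.05, DESeq2 called 1 higher and edgeR with the block 2 higher. The smallest p was that of MT-ND3, a complex I subunit, at 2880.3, 2718.9 and 2713.7 against 2343.3, 1786.2 and 2370.3 CPM (log2 0.35 ± 0.12, adjusted p = 0.0812; with the block adjusted p = 0.00944). Of 7 tested endothelial, fibroblast and smooth muscle markers 0 were called by edgeR or by DESeq2 and 0 had an unadjusted p below 0.05. COL1A1, which had the smallest p, was at 6.02, 6.03 and 7.17 against 6.15, 5.12 and 4.22 CPM (log2 0.32 ± 0.16, adjusted p = 0.242).

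**Figure D4:**
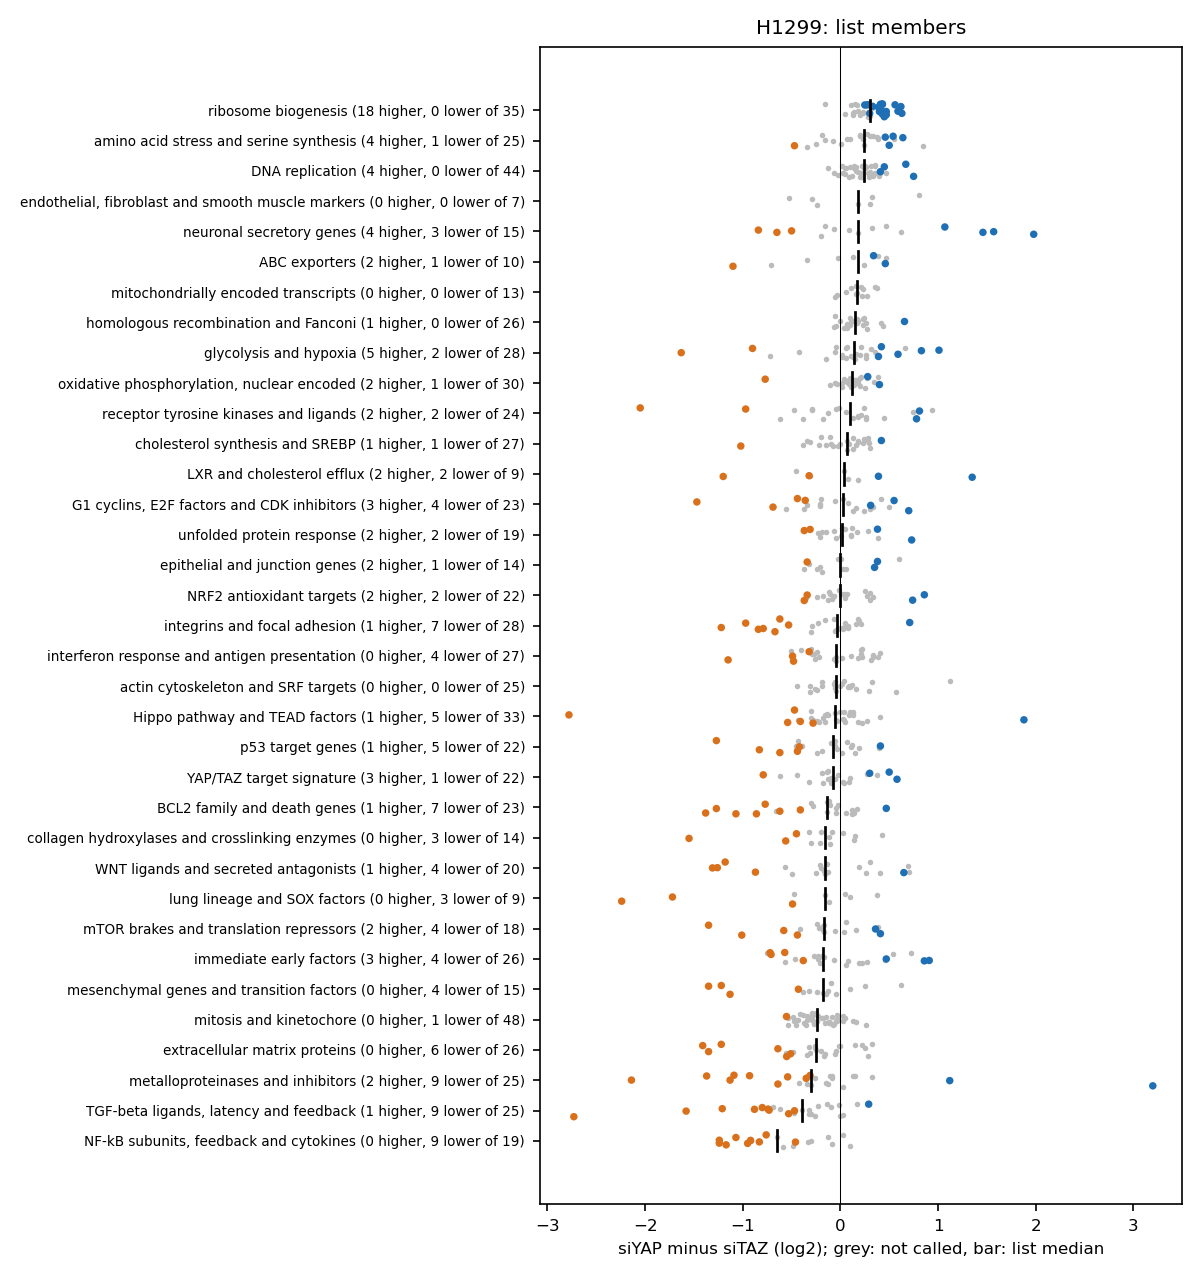
Log2 difference (siYAP minus siTAZ) of every tested member of the 35 lists with at least 3 such members, ordered by list median (black bar); blue and orange points were called, grey points were not. The NF-kB list lies farthest to the left, with a median of -0.65, and the ribosome biogenesis list has the highest median, 0.30.

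Knockdowns were compared in A549 too, by a model of another form: the A549 fit had the replicate number as a block, and the H1299 calls set beside it come from the fit without one. In A549 siYAP against siTAZ called 1127 of 16008 genes (7.04%), 403 higher (2.52%) and 724 lower (4.52%) under siYAP, and 2 (0.0125%) without the block. Fits of the same form thus called 3399 genes in H1299 and 1127 in A549 with the block, and 1846 and 2 without it. Of the H1299 calls 1718 were tested in A549, and 78.9% of them had the same sign there, compared with 62.2% of the 14027 genes tested in both lines. Called in both were 342 genes, 310 with the same sign and 32 with opposite signs, which is 19.9% of those H1299 calls and 34.9% of the 979 A549 calls tested in H1299. EIF4EBP2 (A549 log2 -0.80 ± 0.05, adjusted p = 2.23e-13), MMP2 (-0.79 ± 0.09, adjusted p = 1.6e-07), FN1 (-0.39 ± 0.04, adjusted p = 1.58e-08), BMF (-0.45 ± 0.08, adjusted p = 0.000377) and CTGF (0.63 ± 0.11, adjusted p = 0.000259) had the H1299 direction. NUAK2 had the opposite one (0.34 ± 0.06, adjusted p = 0.000303). In A549 the NF-kB genes TNFAIP3 (0.12 ± 0.12, adjusted p = 0.636), RELB (-0.11 ± 0.08, adjusted p = 0.503) and BIRC3 (-0.09 ± 0.07, adjusted p = 0.509) and the ribosome genes NOP2 (0.12 ± 0.05, adjusted p = 0.122) and NOLC1 (0.09 ± 0.04, adjusted p = 0.202) were not called. Without the block these 5 genes did not pass the test of the difference between lines (adjusted p from 0.0529 for TNFAIP3 to 0.323 for RELB), and with the block all 5 passed (adjusted p up to 0.000316, for NOLC1). TRAF1, at 0.26 ± 0.11 in A549 (adjusted p = 0.161), passed without the block (adjusted p = 0.0395) as well as with it (adjusted p = 8.55e-05).

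The test of the difference itself, an interaction of line and knockdown over all 18 libraries without the block, called 99 of 15816 genes (0.626%), 38 (0.240%) with a more positive and 61 (0.386%) with a more negative siYAP minus siTAZ value in H1299. Among called coding genes that averaged at least 5 CPM over the 12 knockdown libraries, the largest line differences were those of TGFBI, STRA6, which imports retinol, KITLG, RNF141 and PLK2, a stress kinase, on the negative side, and of VGF, SNCG, the collagen chain COL4A6, the neuronal gene CEND1 and HK2 on the positive side. KITLG was at 0.21 ± 0.06 in A549 (adjusted p = 0.0342) against -2.05 in H1299, VGF at 0.03 ± 0.21 (adjusted p = 0.97) against 1.98, and CEND1 at -0.71 ± 0.16 (adjusted p = 0.00262) against 0.87. YAP1 itself was among the genes called (siYAP minus siTAZ -1.82 ± 0.06 in A549 against -2.78 in H1299). In A549 it stood at 17.0, 15.5 and 19.5 CPM under siYAP, at 58.4, 58.9 and 62.7 under siTAZ and at 59.6, 56.9 and 58.3 in the controls. The count depended on single libraries: leaving out 1 library gave 3 genes (without H1299 siYAP library 3) to 139, and the replicate block gave 1535 (9.71%). The culture media differed (RPMI-1640 for H1299, DMEM for A549). By the YAP1 values given, siYAP also left more YAP1 relative to controls in A549 than in H1299. Line, medium and depth of knockdown therefore cannot be told apart.

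**Figure D5:**
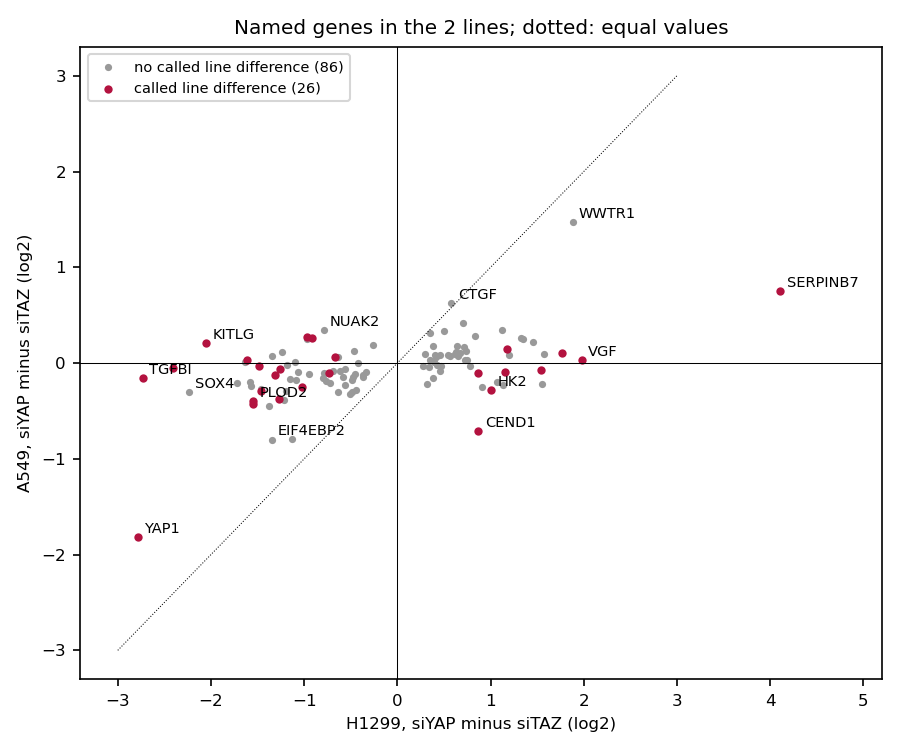
Log2 difference (siYAP minus siTAZ) in A549 (vertical, fit with the replicate block) against H1299 (horizontal) for the 112 named genes with values in both lines; red points (26) passed the test of a difference between lines, grey points (86) did not, and the dotted line marks equal values. YAP1, WWTR1 and EIF4EBP2 lie away from 0 on the same side in both lines, and KITLG and CEND1 on opposite sides.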

How the data were processed

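Poly(A) RNA was sequenced from 9 H1299 and 9 A549 libraries. Per the submitters' processing notes, the authors used cutadapt, STAR 2.4.2a, DESeq2 and the build GRCh38. The deposited values are whole read counts per gene, and the authors' deposited table of the same contrast gives log2 fold changes and adjusted p-values: it holds 1902 genes at an adjusted p below 0.05 (861 higher and 1041 lower under siYAP), 238 of them at least 2-fold apart. Use of strand in counting is not given in the sources used here, so overlapping and antisense genes cannot be told apart. Every gene listed for H1299 had at least 6 counts in some library.

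Here the counts were fitted with edgeR 4.0.16 (TMM scaling, filterByExpr by group, quasi-likelihood F test) in R 4.3.3 over all 9 H1299 libraries, and siYAP was compared with siTAZ. Each SE is the absolute log2 difference divided by the square root of F. A549 was fitted with the replicate number as a block, and the line difference as an interaction over 18 libraries. The scripts were tested on simulated counts. Same-numbered libraries deviated together, with a correlation of deviations from group means of 0.108 to 0.383 in H1299 and 0.384 to 0.729 in A549. Differently numbered pairs in H1299 were at -0.324 to 0.16. The H1299 ranges overlap, and deviations from group means push differently numbered pairs below 0. Within each other group, however, every H1299 library correlated most with the library of its own number. Between siYAP and siTAZ the same-numbered values were 0.254, 0.301 and 0.17, and the others -0.313 to 0.128. The deposited column names also share the letters A, B and C by number. The numbers thus mark H1299 libraries that varied together, but the labels do not say what the numbers stand for. The main H1299 fit did not use the numbers, and counts with the block are given above. Chi-square per degree of freedom between replicates was 6.54 to 27.6, so no library is a copy of another. Alternatives were the block, DESeq2 1.42.0, other scalings and filters, and leaving out libraries.

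Named are the targets, the 15 coding genes with the largest difference each way (called, at least 5 CPM on average, groups apart), the 3 called members with the smallest p of each list (or 1 where none was called), all called signature genes and the 5 largest line differences each way. Other members are named in lists of calls. Some items that this rule names are not reported here. Members and lists were chosen with earlier results of these data known. Promoters come from the RefSeq table of GRCh38.p14.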

Additional observations from a re-analysis of the deposited data

Results flagged for a closer look

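The difference between siYAP and siTAZ was itself tested between H1299 and A549 with the interaction of line and knockdown, and 99 genes passed. Their line difference is given here as the H1299 value minus the A549 value on the log2 scale, for the named genes among them. Secreted and matrix genes with a lower value in H1299 were TGFBI (-2.55), KITLG (-2.26), PLOD2 (-1.15) and WNT7B (-1.19). Receptor, adaptor and apoptosis genes lower in H1299 were TNFRSF21 (-1.12), TRAF1 (-1.18), PMAIP1 (-0.91), TLN2 (-0.73) and STRA6 (-2.36). Regulators lower in H1299 were PRICKLE1 (-1.60), RNF141 (-1.44), PLK2 (-1.24), TCF7 (-1.20), NFIL3 (-1.18), YAP1 (-0.97), SREBF2 (-0.77) and TGIF1 (-0.63). Genes with a higher value in H1299 were SERPINB7 (3.30), VGF (1.88), SNCG (1.70), COL4A6 (1.63), CEND1 (1.53), HK2 (1.28), SPINT2 (1.25), NAP1L5 (1.05) and HMOX1 (0.97).

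Of the 10 genes with the largest line differences each way at 5 CPM or more, RNF141 passed in all 12 fits that left out 1 library (adjusted p up to 0.0398). STRA6 passed in 11 of the 12 and CEND1 in 9 (adjusted p up to 0.0682 for both). KITLG, VGF and SNCG passed in 4 (adjusted p up to 0.0798, 0.113 and 0.0848), PLK2 in 3 (up to 0.108), TGFBI and HK2 in 2 (up to 0.136 and 0.133), and COL4A6 in 0 (up to 0.208).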

How the results depend on the processing

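No direction of a named gene reversed under any alternative. With the replicate block, which follows the replicate numbers, 1742 genes were higher under siYAP and 1657 lower, and 1535 genes differed between lines. DESeq2 gave 246 line differences. Without the block A549 had 2 calls. Leaving out 1 library gave 374 to 928 genes higher, 453 to 1059 lower, 166 to 281 at least 2-fold apart and 3 to 139 line differences. Of 113 named and called genes, 79 kept their call in all 6 fits without 1 H1299 library and 1 (ASAP1) in none. Of 116 named genes, calls were lost by 27 without siTAZ library 3, 25 without siYAP library 3, 17 without siTAZ library 1, 17 without siYAP library 1, 11 without siYAP library 2 and 10 without siTAZ library 2. They were lost by 7 with only the 6 knockdown libraries in the fit, 6 with total counts, 2 with DESeq2 size factors and 2 with no filter. Genes near 1 CPM rest on few reads, so their differences are the least precise.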

Other observations

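Genes beside the targeted loci were looked at after the values were seen. Their counts stand beside the 11.7% called of all genes tested. Within 1 Mb of YAP1 on chromosome 11, 11 other genes were tested, and 5 were lower under siYAP and 0 higher by edgeR. They were the inhibitors of apoptosis BIRC3 (-1.07) and BIRC2 (-0.41), TMEM123 (-0.46 ± 0.11, adjusted p = 0.0125) and the proteases MMP10 (-2.14) and MMP1 (-0.93). TMEM123, a membrane glycoprotein, was at 339.0, 379.3 and 291.7 CPM under siYAP and 502.1, 449.2 and 441.8 under siTAZ, with controls at 465.1 to 526.3. In A549 BIRC3 (-0.09), BIRC2 (-0.01), TMEM123 (-0.09) and MMP1 (-0.68, adjusted p = 0.128) were not called. Within 1 Mb of WWTR1 on chromosome 3, 17 other genes were tested, and 2 were higher under siYAP and 0 lower. This count is near the share over all genes tested. TM4SF1, a tetraspanin-like surface protein, was at 1171.5, 905.5 and 1117.5 CPM under siYAP and 749.4, 606.5 and 699.0 under siTAZ (log2 0.64 ± 0.15, adjusted p = 0.0149), and its relative TM4SF18 stood at 0.51 ± 0.13 (adjusted p = 0.0234). TM4SF1 was higher in A549 as well (0.19, adjusted p = 0.00169).

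Several genes below the level asked of named genes had large differences, and they too were picked after their values were seen. AOX1, aldehyde oxidase, was at 5.06, 2.46 and 5.84 CPM under siYAP against 0.544, 0.552 and 0.508 under siTAZ (log2 3.05, adjusted p = 0.000201), with controls at 0.715 to 0.955. SPTSSB, a small subunit of serine palmitoyltransferase, was at 0.1, 0.267 and 0.238 against 2.94, 2.56 and 2.49 CPM (adjusted p = 0.000108), with controls at 0.229 to 0.596. APLN, the peptide hormone apelin, was at 5.21, 2.94 and 5.65 against 1.14, 0.502 and 0.813 CPM (log2 2.50, adjusted p = 0.00155), with controls at 2.56 to 6.18. These values place the siYAP libraries apart from the controls for AOX1, the siTAZ libraries apart for SPTSSB and APLN.

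In a pair of genes the siYAP libraries differed widely among themselves. The small RNA BCYRN1 was at 35.1, 45.9 and 0.998 CPM in siYAP libraries 1 to 3 and at 0.351 to 0.381 under siTAZ (adjusted p = 0.00217). The metallothionein MT1X was at 79.5 CPM in siYAP library 1 but at 1.6 and 2.47 in the other siYAP libraries, and at 4.62 to 6.81 under siTAZ, and was not called (adjusted p = 0.138).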
